A study of Homo sapiens with 16 samples.

Results

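The 9 genes described here encode receptors or receptor chains for the cytokines that keep myeloid cells alive and drive their differentiation, and they were taken by symbol from the 60623 genes counted in every library. They are *CSF2RB*, *CSF2RA*, *IL3RA*, *CSF3R*, *IL6R*, *IL2RG*, *CSF1R*, *KIT* and *FLT3*. RNA-Seq had been done on MUTZ-3, an AML cell line with inv(3), in which *EVI1*, a transcription factor that holds back myeloid differentiation, is driven by a displaced *GATA2* enhancer, and all the cells were kept in medium with GM-CSF and 5637-conditioned medium. The first experiment compared 10 µM olaparib and 1 µM talazoparib, both inhibitors of PARP, with the vehicle DMSO at 12, 24 and 48 h, and added untreated cells at 0 h. The second compared 2 lentiviral hairpins against *EVI1* in pLKO.1 with puromycin selection, shEVI1-2531 and shEVI1-2532, with the non-targeting control (NTC) at day 3 and day 6. Every one of the 16 conditions is a single library without replicates, the doses of the inhibitors differ, and all the values come from 1 cell line.

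Receptors of this kind fall into families. GM-CSF and IL-3 each bind a private alpha chain, encoded by *CSF2RA* and *IL3RA*, and both complexes signal through the common beta chain encoded by *CSF2RB*, which carries JAK2. *CSF3R* encodes the G-CSF receptor of the neutrophil lineage, *IL6R* the IL-6 binding chain, which signals through gp130, and *IL2RG* the common gamma chain of the receptors for IL-2, IL-4, IL-7, IL-9, IL-15 and IL-21. *CSF1R*, *KIT* and *FLT3* encode receptor tyrosine kinases: the M-CSF receptor of monocytes, and the receptors for stem cell factor and FLT3 ligand, which mark progenitors.

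The libraries held 55999673 to 72681943 counts in the inhibitor experiment and 95523038 to 120716213 in the knockdown. Levels are given as TMM CPM, counts relative to the library totals after edgeR's TMM scaling, which was done separately in each experiment. *EVI1*, listed as MECOM, stood at 40.6 and 37.2 CPM in the NTC libraries at day 3 and day 6, at 13.2 and 17.5 with shEVI1-2531 and at 5.14 and 4.31 with shEVI1-2532. With olaparib it was 0.907, 0.778 and 0.379 of DMSO at 12, 24 and 48 h, and with talazoparib 0.915, 0.625 and 0.163. The summed level of 7 monocyte markers, mostly *LYZ*, was 241 to 411 CPM with DMSO and reached 2135 with olaparib and 4285 with talazoparib at 48 h, when all 7 markers were above DMSO. It was 166 and 212 with NTC, 1016 and 1170 with shEVI1-2531, and 4508 and 5682 with shEVI1-2532. The progenitor marker *CD34* was at 644 CPM with NTC at day 6, 79.2 with shEVI1-2531 and 3.61 with shEVI1-2532. Of 5 progenitor markers, 4 were lower and 1 higher than NTC at day 6 with either hairpin. At 48 h 3 were higher and 2 lower than DMSO with olaparib, and 2 higher and 3 lower with talazoparib. The part of these marker shifts in the receptor results was not tested, and in bulk RNA a change in the share of a cell type cannot be told apart from a change in RNA per cell. Summed markers of T, B, NK and erythroid cells stayed at or below 17.3 CPM in all 16 libraries.

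Stretches upstream of the start sites are shown for the 5 receptors, beside *FLT3*, whose levels differed between the hairpins, to set their letters beside those levels. They come from RefSeq windows on GRCh38.p14 that run from 250 bases before a start site to 50 after it. The windows were searched on both strands for GAGGAA, the core bound by PU.1, TGTGGT for RUNX, TTGCNNAA for C/EBP and AGATAA for GATA factors, and no match to one motif overlapped a match to another. Of 35116 windows in the table, 27.9% held GAGGAA, 13.1% TGTGGT, 10.5% TTGCNNAA and 10.3% AGATAA. Windows were found for 8 of the 9 receptors, and *CSF2RB* had none. Bases within an annotated exon of the same gene are left out, the strand is that of the gene, and capitals mark the matches. The stretches are *CSF3R* at chr1:36483315-36483564 (minus), *CSF2RA* at chrX:1268564-1268799 (plus), *IL3RA* at chrX:1336535-1336615 (plus), *CSF1R* at chr5:150086608-150086804 (minus, before the start site at 150086554) and *KIT* at chr4:54657707-54657917 (plus).
CSF3R: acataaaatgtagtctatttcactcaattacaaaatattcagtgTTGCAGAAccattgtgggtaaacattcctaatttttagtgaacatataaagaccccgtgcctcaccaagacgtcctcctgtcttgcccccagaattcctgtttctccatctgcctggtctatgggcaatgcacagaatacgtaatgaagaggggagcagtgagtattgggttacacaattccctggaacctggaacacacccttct
CSF2RA: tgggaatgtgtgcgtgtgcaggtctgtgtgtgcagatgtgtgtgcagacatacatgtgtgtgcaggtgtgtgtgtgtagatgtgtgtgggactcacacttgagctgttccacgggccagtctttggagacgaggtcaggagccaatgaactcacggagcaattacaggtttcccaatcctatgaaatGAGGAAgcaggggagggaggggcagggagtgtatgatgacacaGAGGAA
IL3RA: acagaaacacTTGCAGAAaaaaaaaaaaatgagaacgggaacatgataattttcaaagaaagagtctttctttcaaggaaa
CSF1R: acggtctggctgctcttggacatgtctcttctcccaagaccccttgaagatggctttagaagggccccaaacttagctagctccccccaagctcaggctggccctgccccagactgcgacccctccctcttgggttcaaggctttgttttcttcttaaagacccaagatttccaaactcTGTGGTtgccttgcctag
KIT: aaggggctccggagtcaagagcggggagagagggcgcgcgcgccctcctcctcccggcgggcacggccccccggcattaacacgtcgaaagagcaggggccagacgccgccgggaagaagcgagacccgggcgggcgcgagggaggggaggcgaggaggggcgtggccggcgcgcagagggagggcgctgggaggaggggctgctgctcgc
*CSF3R* and *IL3RA* carry the same 8 letters, TTGCAGAA, 206 and 240 bases before the start site. *CSF3R* also has TGTGGT after that start site, in the part not shown, and GAGGAA 111 bases before its other start site, at 36482913. *CSF2RA* has GAGGAA 63 and 20 bases before it, and *CSF1R* has TGTGGT 71 bases before its start site, with GAGGAA 20 and 14 bases before it and once after it in the part not shown. The *KIT* window held none of the 4 motifs, and neither did that of the other *CSF1R* start site, at 150113365. No receptor window held AGATAA. These matches are letters in a window and were not tested for binding.

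Compared per kilobase of annotated exon, the common beta chain had the highest level among the receptors in the 6 control libraries (untreated, DMSO and NTC). *CSF2RB* had a median of 62.3 CPM per kb, with a range of 49.6 to 92.6, and *CSF1R* followed at 42.7, with a range of 23.7 to 58.5. *IL3RA* stood at 24.3, *CSF2RA* at 20.5, *IL6R* at 19.2, *IL2RG* at 16.1 and *KIT* at 13.2 CPM per kb. *CSF3R* came next to last at 7.07, with a range of 4.63 to 11.3, and *FLT3* was near the floor at 0.0320. The ranges of all neighbours in this order overlapped, except those of *CSF3R* and *FLT3*, although within each of the 6 libraries *CSF2RB* stood above *CSF1R* and *CSF1R* above *IL3RA*. The lengths came from GENCODE 29 and count every annotated exon once, and the inhibitor and knockdown libraries were normalized separately. The *KIT* range of 3.36 to 17.2 CPM per kb was the widest among the 8 receptors above the floor as a fold, with both NTC libraries below the 4 untreated and DMSO libraries.

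**Figure D1:**
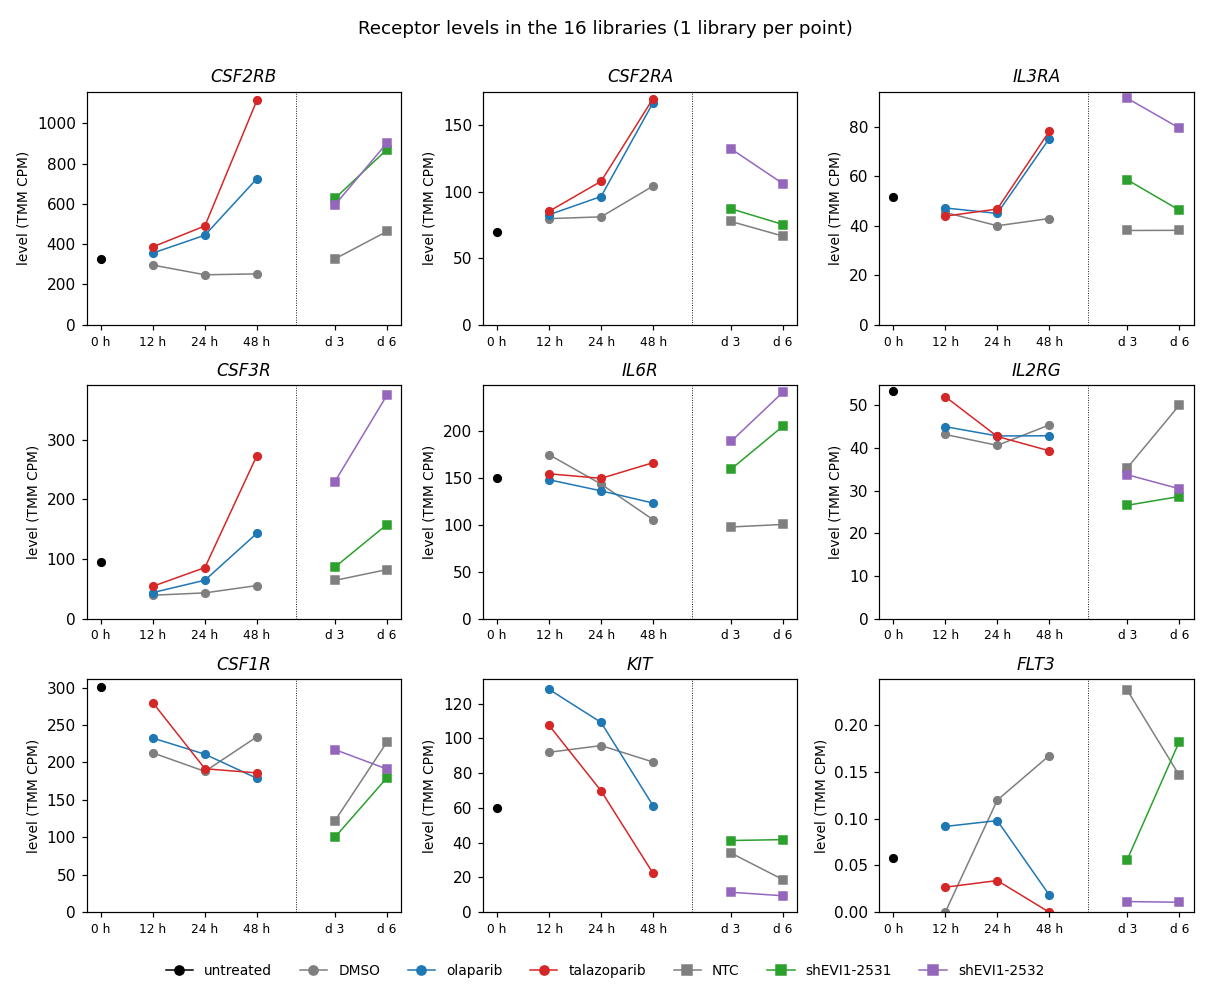
Level of each receptor in TMM CPM (vertical axes from 0) in the 16 libraries, by hour (circles, inhibitor experiment) or day (squares, knockdown), with 1 library per point and no error bar. Time points are evenly spaced and each experiment was normalized on its own. CSF2RB and CSF3R climbed from 12 to 48 h with both inhibitors, to 1113 and 273 CPM with talazoparib, while KIT fell to 22.3.

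Tests were made on the inhibitors over all genes with edgeR's quasi-likelihood fit, with the hours as blocks: the mean effect of both inhibitors, and the change of that effect for each doubling of the hours. For the mean effect, 0 of the 8 receptors tested passed the adjusted p threshold of 0.05, where 3.99% of 17218 genes did, 2.93% higher and 1.06% lower. At an unadjusted p under 0.05, 3 receptors were found, *CSF2RA*, *CSF2RB* and *CSF3R*, and DESeq2 called 2 of them, *CSF2RB* and *CSF3R*. The change with time was called for 4 of the 8, where 19.8% of genes were called, 10.4% higher and 9.4% lower: *CSF2RB*, *CSF3R* and *IL3RA* rose and *KIT* fell. DESeq2 called 6 there, the same 4 with *CSF2RA* and *IL6R*. The median change over the 8 receptors was 0.32 on the log2 scale per doubling of the hours and -0.00064 over all genes tested. Between talazoparib and olaparib 0 receptors were called and 0 had an unadjusted p under 0.05, DESeq2 called 0 receptors too, and the doses were not matched. By edgeR 0% of all genes were called there, and 355 had an unadjusted p under 0.05.

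The knockdown was tested the same way, with the day as a block. With shEVI1-2531, 6 of 9 receptors were called, 5 higher and 1 lower, where 17.4% of 18606 genes were called, 9.49% higher and 7.9% lower. With shEVI1-2532, 7 of 9 were called, 5 higher and 2 lower, where 41.1% of genes were called, 21.2% higher and 19.9% lower. *CSF2RB*, *CSF3R*, *IL3RA* and *IL6R* were higher with either hairpin. *FLT3*, which passed the filter on low counts only through the libraries where it was higher, is among the receptors lower with shEVI1-2532 and among those that differ between the hairpins, and without it 6 of 8 were called with shEVI1-2532. The 2 hairpins differed from each other for 6 of the 9 receptors, where 24.2% of genes differed, 12.2% higher and 12% lower with shEVI1-2532, and 5 of 8 without *FLT3*; both comparisons with NTC share the NTC libraries. The median log2 fold change of the 9 receptors was 0.45 with shEVI1-2531 and 0.72 with shEVI1-2532, against 0.0075 and -0.00026 over all genes tested.

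**Figure D2:**
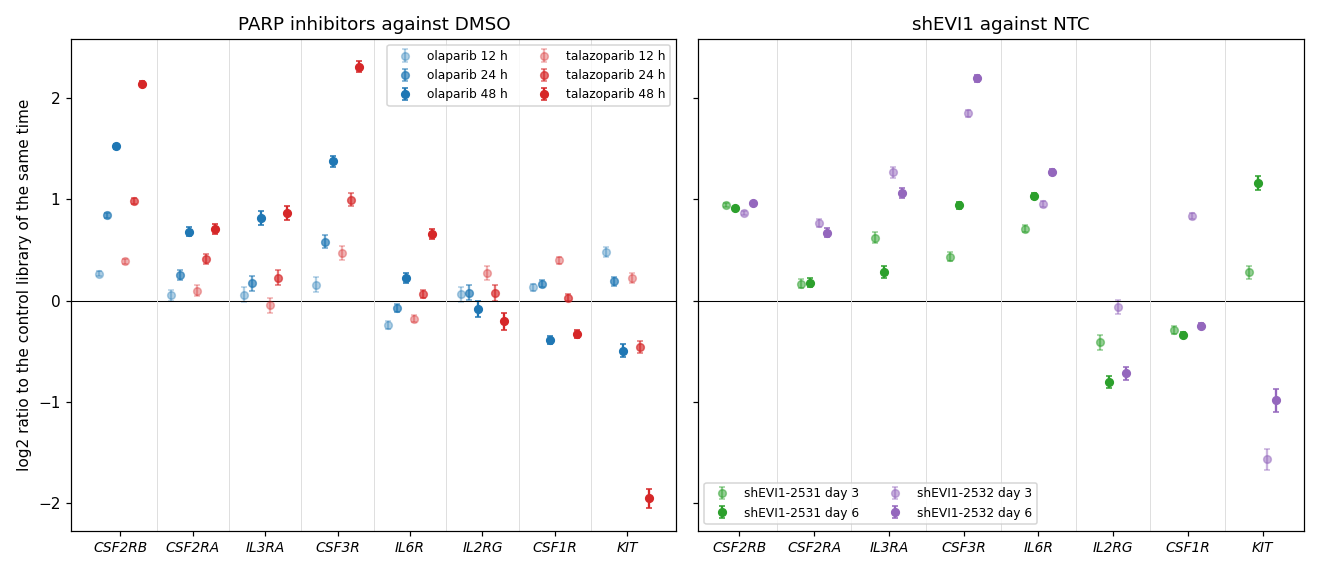
Log2 ratio of each receptor (horizontal axis) to the control library of the same hour or day; bars are 95% intervals that cover counting error only, and paler points are earlier times. At 48 h the talazoparib ratios of CSF2RB and CSF3R were 4.41-fold and 4.95-fold and that of KIT 0.258-fold, while KIT lay on opposite sides of 0 with the 2 hairpins.

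*CSF2RB* (ENSG00000100368, chr22:36913628-36940439, plus strand) encodes the beta chain shared by the GM-CSF, IL-3 and IL-5 receptors. It stood at 327 CPM in untreated cells and at 296, 248 and 253 with DMSO at 12, 24 and 48 h. Olaparib gave 356, 445 and 725 CPM and talazoparib 387, 491 and 1113, so that both inhibitors were above DMSO at every hour and the gap widened with time. The ratio to DMSO went from 1.20-fold (95% interval 1.18 to 1.23) to 2.87-fold (2.82 to 2.92) with olaparib, and from 1.31-fold (1.28 to 1.33) to 4.41-fold (4.33 to 4.48) with talazoparib. The log2 effect rose by 0.75 ± 0.13 (SE) per doubling of the hours (adjusted p = 5.7e-07). The mean effect of 0.98 ± 0.26 missed the threshold (adjusted p = 0.0560) with all hours in the fit, and passed it without the 12 h libraries (adjusted p = 0.00432) or without the 48 h libraries (adjusted p = 0.0225), while without the 24 h libraries it was 1.02 (adjusted p = 0.339).

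In the knockdown *CSF2RB* stood at 327 and 463 CPM with NTC, 627 and 869 with shEVI1-2531, and 594 and 901 with shEVI1-2532. All 4 knockdown libraries were above both NTC libraries, though NTC itself was 1.42-fold higher at day 6 than at day 3. The fitted log2 fold change was 0.92 ± 0.12 with shEVI1-2531 (adjusted p = 4.2e-04) and 0.91 ± 0.12 with shEVI1-2532 (adjusted p = 1.1e-04). The difference between the hairpins was -0.01 ± 0.12 (adjusted p = 0.958), although MECOM was 0.471 of NTC at day 6 with the first and 0.116 with the second. Of the 4 receptors called higher with both hairpins, *CSF2RB* had the smallest gap between them.

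*CSF2RA* (ENSG00000198223, chrX:1268800-1310381, plus strand) encodes the alpha chain that binds GM-CSF, which was in the culture medium beside the 5637-conditioned medium. It and *IL3RA* lie in the region that X and Y share, the files hold 1 row for each, and how reads common to X and Y were assigned is not given in the sources used here. *CSF2RA* was at 70.0 CPM untreated, 79.7, 81.0 and 104 with DMSO, 82.7, 96.3 and 167 with olaparib and 85.2, 108 and 169.9 with talazoparib. DMSO alone was 1.49-fold above the untreated library at 48 h, and the inhibitors added 1.60-fold (1.55 to 1.65) and 1.63-fold (1.58 to 1.68) at that hour. The change with time, 0.31 ± 0.13 per doubling (adjusted p = 0.0799), and the mean effect, 0.36 ± 0.12 (adjusted p = 0.0855), did not pass. In 2 of 6 alternatives, DESeq2 among them, the change with time passed.

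With NTC *CSF2RA* was at 77.6 and 66.6 CPM, with shEVI1-2531 at 87.1 and 75.3 and with shEVI1-2532 at 132 and 106. Only the shEVI1-2532 libraries lay clear of NTC. The log2 fold change was 0.72 ± 0.13 with shEVI1-2532 (adjusted p = 8.0e-04) and 0.17 ± 0.13 with shEVI1-2531 (adjusted p = 0.393), and the hairpins differed by 0.55 ± 0.13 (adjusted p = 0.00860). That difference lost its call without the day 3 library of shEVI1-2531 (adjusted p = 0.0752) or of shEVI1-2532 (adjusted p = 0.0697). The shEVI1-2531 ratio at day 3, 0.17 on the log2 scale, turned to -0.00048 when libraries were scaled by their totals only.

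*IL3RA* (ENSG00000185291, chrX:1336616-1382689, plus strand) encodes the IL-3 binding chain, known as CD123 and common on AML blasts. It was at 51.7 CPM untreated, 45.4, 40.0 and 43.0 with DMSO, 47.2, 45.0 and 75.3 with olaparib and 43.9, 46.8 and 78.2 with talazoparib. The libraries were close together up to 24 h and came apart at 48 h, at 1.75-fold (1.67 to 1.84) with olaparib and 1.82-fold (1.73 to 1.91) with talazoparib. Its effect rose by 0.42 ± 0.13 per doubling (adjusted p = 0.0126), and it did not pass with libraries scaled by their totals only (adjusted p = 0.143).

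In the knockdown *IL3RA* was at 38.1 and 38.2 CPM with NTC, 58.6 and 46.4 with shEVI1-2531 and 91.6 and 79.6 with shEVI1-2532. All 4 knockdown libraries were above NTC, with those of shEVI1-2532 highest. The log2 fold change was 1.16 ± 0.14 with shEVI1-2532 (adjusted p = 5.3e-05) and 0.45 ± 0.14 with shEVI1-2531 (adjusted p = 0.0462), and the hairpins differed by 0.71 ± 0.14 (adjusted p = 0.00360). The shEVI1-2531 call was lost in 6 of 13 alternatives. They were the fits without the NTC library of day 3 (adjusted p = 0.388), without the shEVI1-2531 library of day 3 (adjusted p = 0.382), with no day in the model (adjusted p = 0.403), with totals only (adjusted p = 0.209), with upper quartile scaling (adjusted p = 0.0564) and on the 4 libraries of NTC and shEVI1-2531 alone (adjusted p = 0.0627).

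The chains of the GM-CSF and IL-3 receptors did not move in step. Per kilobase, *CSF2RB* over *CSF2RA* was 3.57 in untreated cells, 2.85, 2.35 and 1.86 with DMSO at 12, 24 and 48 h, and 3.30, 3.54 and 3.33 with olaparib. With talazoparib it was 3.48, 3.49 and 5.02, above DMSO at every hour, and of the inhibitor libraries only that of talazoparib at 48 h was above the untreated one. It was 3.23 and 5.33 with NTC, 5.51 and 8.85 with shEVI1-2531, and 3.45 and 6.52 with shEVI1-2532, so that the excess of the beta chain over the alpha chain was larger with shEVI1-2531. Over *IL3RA* the beta chain stood at 2.93 and 4.15 with NTC, at 3.66 and 6.41 with shEVI1-2531 and at 2.22 and 3.88 with shEVI1-2532, below NTC on both days in the last case. These within-library ratios do not depend on the scaling of the library totals and have no replicate.

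**Figure D3:**
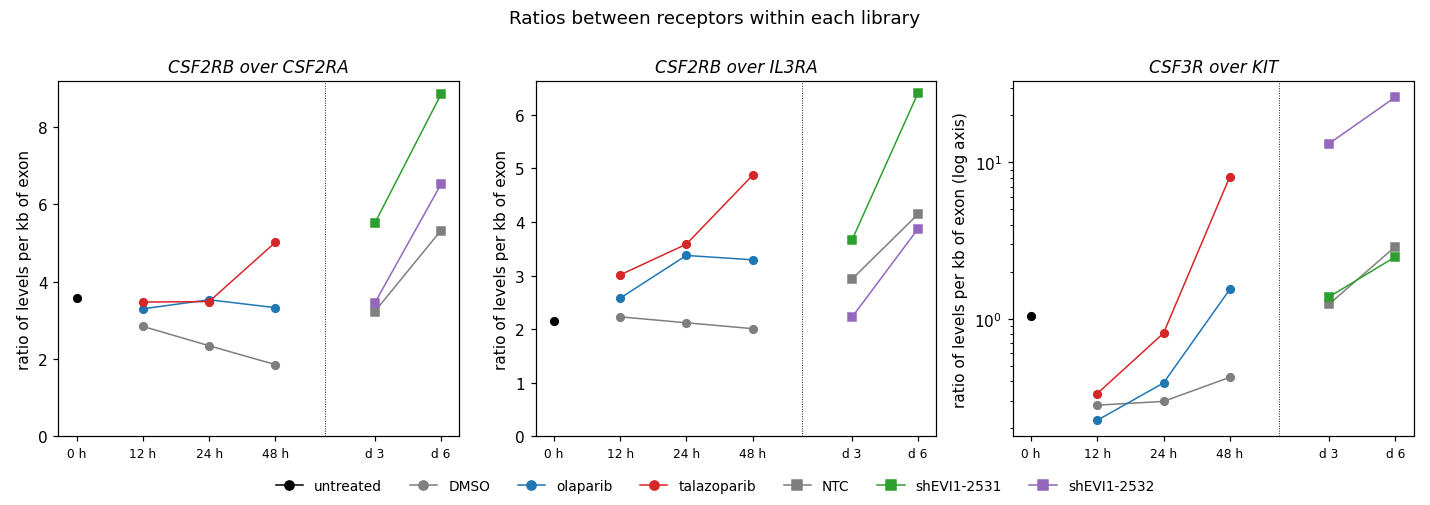
Ratio of the levels per kb of exon of a pair of receptors within each library, by hour or day, 1 library per point; the third panel has a log axis. CSF2RB over CSF2RA declined from 2.85 to 1.86 with DMSO and was above DMSO with both inhibitors at every hour, and CSF3R over KIT reached 8.08 with talazoparib at 48 h and 26.2 with shEVI1-2532 at day 6.

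*CSF3R* (ENSG00000119535, chr1:36466043-36483278, minus strand) encodes the receptor for G-CSF, which drives neutrophil production. It stood at 95.4 CPM in untreated cells and at 39.1, 43.0 and 55.3 with DMSO, which is 0.409, 0.451 and 0.579 of the untreated library. Olaparib gave 43.5, 64.3 and 143 CPM and talazoparib 54.1, 85.5 and 273. At each hour the order was DMSO, olaparib, talazoparib, but at 12 and 24 h all 6 inhibitor and DMSO libraries were still below the untreated one. At 48 h the ratio to DMSO was 2.59-fold (2.49 to 2.69) with olaparib and 4.95-fold (4.77 to 5.13) with talazoparib.

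For *CSF3R* the change with time was 0.76 ± 0.13 per doubling (adjusted p = 3.7e-07). The mean effect was 0.94 ± 0.26 (adjusted p = 0.0616) and passed without the 12 h libraries (adjusted p = 0.00559) or the 48 h libraries (adjusted p = 0.0256), while without the 24 h libraries it was 1.02 (adjusted p = 0.339). Talazoparib minus olaparib was 0.59 ± 0.29 over the 3 hours (adjusted p = 0.952), with 10 µM of one and 1 µM of the other.

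*CSF3R* had the highest knockdown effect among the 9 receptors with shEVI1-2532. It was at 63.9 and 82.1 CPM with NTC, 86.2 and 158 with shEVI1-2531 and 229.6 and 374 with shEVI1-2532. The log2 fold change was 2.01 ± 0.15 with shEVI1-2532 (adjusted p = 1.3e-06) and 0.68 ± 0.14 with shEVI1-2531 (adjusted p = 0.00687), and the hairpins differed by 1.33 ± 0.15 (adjusted p = 9.5e-05). The shEVI1-2531 call did not pass without the NTC library of day 6 (adjusted p = 0.0801), while the shEVI1-2532 libraries were above all others on both days. *ELANE*, a granule protease of the neutrophil lineage, was at 89.6 and 83.8 CPM in those 2 libraries. It was at 1.18 to 11.6 in the other 4 of the knockdown. *MPO*, which makes up most of the neutrophil marker sum, was at 1913 and 2927 CPM with shEVI1-2532. With NTC it was at 3336 and 2722, and with shEVI1-2531 at 3393 and 4827. With talazoparib at 48 h *MPO* was at 603 CPM against 2453 with DMSO, and *ELANE* at 3.57 against 8.22. Of the 5 neutrophil markers, 2 were higher and 2 lower there than with DMSO.

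*IL6R* (ENSG00000160712, chr1:154405193-154469450, plus strand) encodes the chain that binds IL-6. It was at 149.7 CPM untreated and fell with DMSO from 174 at 12 h to 143 and 105. Olaparib gave 147.7, 136 and 123 CPM and talazoparib 154, 149 and 166. Both inhibitors were below DMSO at 12 h, at 0.847 and 0.883 of it, and above it at 48 h, at 1.17-fold (1.13 to 1.21) and 1.58-fold (1.53 to 1.63), as DMSO declined and the talazoparib libraries stayed between 149 and 166. The change with time was 0.32 ± 0.13 per doubling and did not pass (adjusted p = 0.0634), though it passed in 4 of 6 alternatives, DESeq2 among them.

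In the knockdown *IL6R* was at 97.5 and 100.2 CPM with NTC, 159 and 205 with shEVI1-2531 and 189 and 241 with shEVI1-2532. Both hairpins were above NTC on both days. The log2 fold change was 0.87 ± 0.13 (adjusted p = 0.00107) and 1.11 ± 0.14 (adjusted p = 5.1e-05), and the difference between the hairpins, 0.24 ± 0.13, was not called (adjusted p = 0.219).

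*IL2RG* (ENSG00000147168, chrX:71107404-71112108, minus strand), the gamma chain best known from lymphocytes, changed little with the inhibitors. It was at 53.4 CPM untreated, 43.2, 40.6 and 45.4 with DMSO, 45.0, 42.8 and 42.9 with olaparib and 52.0, 42.7 and 39.4 with talazoparib. The mean effect was 0.03 ± 0.10 (adjusted p = 0.846). In the knockdown it was the receptor called lower with shEVI1-2531, at 35.3 and 50.02 CPM with NTC against 26.6 and 28.6, a log2 fold change of -0.62 ± 0.18 (adjusted p = 0.0319). With shEVI1-2532 it was at 33.7 and 30.4 CPM, or -0.39 ± 0.18 (adjusted p = 0.0965).

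Most of the *IL2RG* gap lay at day 6, when NTC itself was 1.42-fold above its day 3 level. The shEVI1-2531 call was lost without the NTC library of day 6 (adjusted p = 0.335), the shEVI1-2531 library of day 3 (adjusted p = 0.0730) or that of day 6 (adjusted p = 0.0616). With shEVI1-2532 the decrease passed without the NTC library of day 3 (-0.71, adjusted p = 0.0198) or the shEVI1-2531 library of day 6 (adjusted p = 0.0338), and with libraries scaled by their totals only (-0.69, adjusted p = 0.0131).

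*KIT* (ENSG00000157404, chr4:54657918-54740715, plus strand), the receptor for stem cell factor and a marker of progenitors, was the receptor called lower over time with the inhibitors. It stood at 60.0 CPM untreated and at 92.0, 95.8 and 86.4 with DMSO. Olaparib gave 128, 109 and 61.3 CPM and talazoparib 107, 69.8 and 22.3, so that both were above DMSO at 12 h and below it at 48 h. The ratio to DMSO went from 1.39-fold (1.35 to 1.44) to 0.710 (0.680 to 0.741) with olaparib and from 1.17-fold (1.13 to 1.21) to 0.258 (0.242 to 0.276) with talazoparib. Its effect changed by -0.79 ± 0.13 per doubling (adjusted p = 7.0e-08), and the mean effect, which averages over the turn, was -0.36 ± 0.29 (adjusted p = 0.393).

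The 2 hairpins moved *KIT* in opposite directions. With NTC it was at 34.0 and 18.7 CPM, with shEVI1-2531 at 41.2 and 41.7, and with shEVI1-2532 at 11.5 and 9.45. The shEVI1-2531 libraries were above both NTC libraries and the shEVI1-2532 libraries below both. The log2 fold change was 0.71 ± 0.20 (adjusted p = 0.0321) with the first and -1.30 ± 0.21 (adjusted p = 3.8e-04) with the second, a difference of -2.01 ± 0.21 (adjusted p = 7.2e-05). NTC at day 6 was 0.550 of its day 3 level, and the shEVI1-2531 increase was 1.21-fold (1.16 to 1.27) at day 3 and 2.23-fold (2.12 to 2.34) at day 6. That call was lost without the NTC library of day 6 (0.38, adjusted p = 0.266) or the shEVI1-2531 library of day 6 (adjusted p = 0.173), and with libraries scaled by their totals only (adjusted p = 0.0963).

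Per kilobase, *CSF3R* over *KIT* was 1.05 in untreated cells, 0.280, 0.296 and 0.422 with DMSO, 0.224, 0.389 and 1.54 with olaparib and 0.332, 0.809 and 8.08 with talazoparib. It was 1.24 and 2.89 with NTC, 1.38 and 2.49 with shEVI1-2531 and 13.2 and 26.2 with shEVI1-2532. The *CSF3R* over *KIT* ratio was thus near NTC with shEVI1-2531 and far above it with shEVI1-2532. Of the mast cell markers, in whose lineage *KIT* is also high, *CPA3* and *MS4A2* were at or near 0 in all 16 libraries, and *HDC* and *TPSAB1* were detected throughout.

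**Figure D4:**
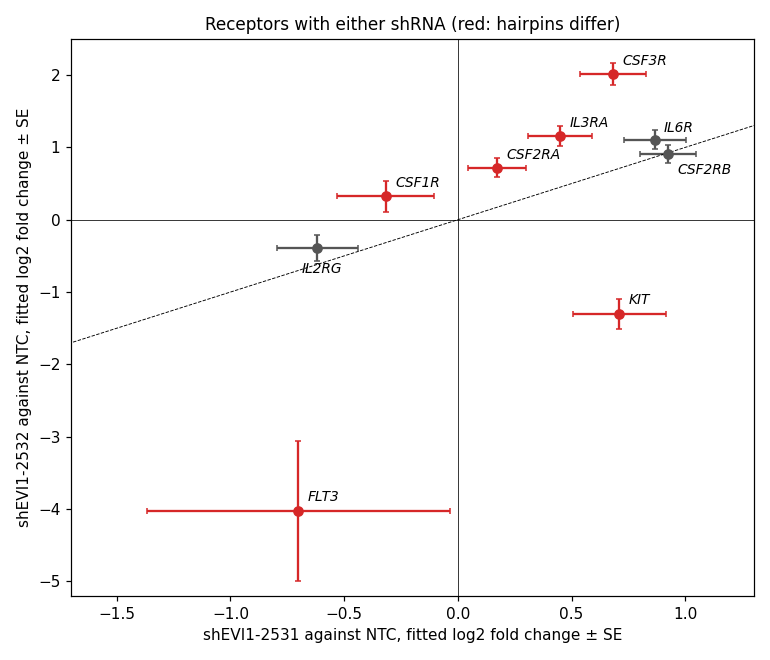
Fitted log2 fold change against NTC ± SE of the 9 receptors with shEVI1-2531 (horizontal) and shEVI1-2532 (vertical), both from the same 2 NTC libraries; the axes have different spans and the dashed line marks equal effects. Red points are the 6 receptors for which the hairpins differed at an adjusted p under 0.05, FLT3 with its few counts among them, with KIT at 0.71 and -1.30, while CSF2RB lies on the line.

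*CSF1R* (ENSG00000182578, chr5:150053291-150113372, minus strand) encodes the M-CSF receptor, which macrophages need to form and survive. It was at 301 CPM untreated and at 213, 188 and 234 with DMSO. Olaparib gave 232, 211 and 179 CPM and talazoparib 279.6, 192 and 186, above DMSO at 12 h and below it at 48 h, at 0.763 (0.744 to 0.783) and 0.794 (0.774 to 0.815). The change with time was -0.31 ± 0.13 per doubling (adjusted p = 0.0740), and it passed with libraries scaled by their totals only (-0.43, adjusted p = 0.0121). The monocyte markers *CD14* and *LYZ* stood at 96.7 and 4115 CPM with talazoparib at 48 h against 2.77 and 352 with DMSO, where this receptor of the monocyte lineage was below DMSO.

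In the knockdown *CSF1R* was at 122 and 227 CPM with NTC, 99.9 and 179 with shEVI1-2531 and 217 and 191 with shEVI1-2532. NTC was 1.86-fold higher at day 6 than at day 3, and so the shEVI1-2532 ratio was 1.78-fold (1.74 to 1.82) at day 3 and 0.843 (0.827 to 0.858) at day 6. The log2 fold change was -0.32 ± 0.21 with shEVI1-2531 (adjusted p = 0.346) and 0.32 ± 0.22 with shEVI1-2532 (adjusted p = 0.254), and the hairpins differed by 0.64 ± 0.22 (adjusted p = 0.0496). Without the shEVI1-2532 library of day 3 that difference was 0.08 (adjusted p = 0.840), and it was also lost without the shEVI1-2531 library of day 3 (adjusted p = 0.300) or either NTC library (adjusted p = 0.0557 and 0.0537). The shEVI1-2532 effect passed without that hairpin's day 6 library (0.82, adjusted p = 6.9e-05), and the shEVI1-2531 effect without its day 6 library (-0.57, adjusted p = 0.0378). A ribosomal pseudogene on the opposite strand, *RPL7P1*, lies within *CSF1R* and had 299 to 847 counts, and whether counting used strand is not given in the sources used here.

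*FLT3* (ENSG00000122025, chr13:28003274-28100592, minus strand), often mutated in AML, was barely detected. It had 0 to 11 counts in the 10 inhibitor libraries, too few to be tested there, and the floor of 3 counts corresponds to 0.0249 to 0.0536 CPM. It had 30 and 19 counts with NTC, 5 and 22 with shEVI1-2531 and 1 and 1 with shEVI1-2532, and it passed the filter on low counts only through the libraries where it was higher. With shEVI1-2532 the ratio to NTC was 0.0479 (0.00117 to 0.288) at day 3 and 0.0727 (0.00175 to 0.457) at day 6. The fitted log2 fold change of -4.02 ± 0.97 (adjusted p = 0.00572) depends on the count added to values near 0, and so does the difference between the hairpins of -3.32 ± 1.03 (adjusted p = 0.0341). The first lost its call without the NTC library of day 3 (adjusted p = 0.0686), and the difference without the shEVI1-2532 library of day 3 (adjusted p = 0.0534), that of day 6 (adjusted p = 0.115) or the shEVI1-2531 library of day 6 (adjusted p = 0.338). The *FLT3* stretch upstream of the start holds 1 GAGGAA on the strand opposite to the gene.

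Each receptor was also set against all 8718 genes that were tested in both experiments with a mean log2 CPM above 3, by the correlation of the 10 log2 ratios to DMSO or NTC, which share their control libraries. The genes closest to *CSF2RB* were *ADGRE3*, an adhesion receptor of myeloid cells (r = 0.972), and *ABCA7*, a lipid transporter (r = 0.967). *CSF2RA* was closest to *LILRB3*, an inhibitory receptor of myeloid cells (r = 0.985). *CSF3R* was closest to *BRPF3* (r = 0.985) and *MAPK13* (r = 0.982), *IL3RA* to *UNC119* (0.979) and *TMEM205* (0.978), and *IL6R* to *TMED4* (0.997) and *CHSY1* (0.985). *KIT* was closest to *ERCC6L*, a helicase of mitosis (0.982), and *RNASEH1* (0.974), *IL2RG* to *SIPA1L3* (0.972) and *RPS6KA2* (0.965), and *CSF1R* to *GATAD2B* (0.925) and *PPM1F* (0.924). Among the receptors themselves the highest r was 0.922, between *CSF2RA* and *CSF3R*, and the lowest -0.883, between *CSF2RA* and *KIT*, over the same 10 ratios.

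Of 14 cytokine genes that bind these receptors or the related ones, 3 were expressed enough to be tested, *CSF1*, *IL34* and *KITLG*. *CSF1*, which encodes the ligand of the M-CSF receptor, rose with the inhibitors by 2.12 ± 0.28 on the log2 scale in the mean effect (adjusted p = 0.016) and with shEVI1-2531 by 2.31 ± 0.49 (adjusted p = 0.0070), from a level of 0.244 to 0.733 CPM in the DMSO and NTC libraries. The untreated library, at 5.43 CPM (375 counts), was above every inhibitor library, which held 1.04 to 2.5 CPM. With shEVI1-2531 *CSF1* was at 0.652 CPM at day 3 against 0.372 with NTC, and at 7.79 against 0.733 at day 6, so that most of its increase lay in the day 6 library. *KITLG*, the gene for stem cell factor, rose with shEVI1-2531 (0.82 ± 0.22). With shEVI1-2532, where *KIT* fell, *KITLG* was at 0.47 ± 0.22 (adjusted p = 0.114). The difference between the hairpins was not called for *KITLG* (adjusted p = 0.280). At 12 h it was at 27.3 CPM with olaparib and 26.5 with talazoparib, against 11.8 with DMSO. At 48 h it was at 13.9 and 5.95 against 8.41. Its inhibitor effect thus fell by 0.53 per doubling of the hours from an early rise. The mean effect of 0.74 ± 0.24 was not called (adjusted p = 0.0776). *IL34*, a further ligand of the M-CSF receptor, rose with shEVI1-2532 (0.92 ± 0.28).

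Of 18 partner and related receptors 13 were tested, and 4 rose and 2 fell in the change with time, 1 rose and 2 fell with shEVI1-2531, and 2 rose and 3 fell with shEVI1-2532. These are 46.2%, 23.1% and 38.5% of the list, where 19.8%, 17.4% and 41.1% of all genes were called, so that with the hairpins the share was near or below that of all genes. *PDGFRB*, a tyrosine kinase related to *KIT* and *CSF1R*, fell in all of these: by 1.40 per doubling, by 2.73 and by 4.15 on the log2 scale. *IL21R*, which pairs with the common gamma chain, rose in the mean inhibitor effect by 1.75 ± 0.14 (adjusted p = 0.0043), with shEVI1-2531 by 0.99 and with shEVI1-2532 by 1.70. *IL7R*, another such partner, fell by 1.35 with shEVI1-2531. It was also called lower with shEVI1-2532 (-0.62) and in the change with time (-0.38 per doubling). *IL6ST*, which encodes gp130, rose with shEVI1-2532 (1.03 ± 0.23), and the hairpins differed for it by 1.60 ± 0.23 (adjusted p = 5.6e-04). *IL5RA*, a further partner of the common beta chain, rose in the change with time by 0.67.

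Behind the receptors, 10 of 11 JAK and STAT genes were tested, and 1 fell in the change with time and 1 with shEVI1-2531, in both cases *JAK3*, the kinase bound to the common gamma chain (-0.51 per doubling and -2.07). The share called was 10% in each of these 2 comparisons, below that of all genes. With shEVI1-2532 it was 40%, near the 41.1% of all genes. With shEVI1-2532 2 rose and 2 fell, among them *STAT3* (1.02), which signals for the G-CSF and IL-6 receptors, *JAK1* (0.74) and *STAT5A* (-0.73). Of 14 adaptor and RAS-PI3K genes 4 rose in the change with time, 2 with shEVI1-2531 and 8 with shEVI1-2532, and 1 fell, with the last, which makes 28.6%, 14.3% and 64.3% of them. *GRB2*, an adaptor to RAS, rose in all of these (0.40 per doubling, 0.62 and 1.05), and *GAB2* rose in the change with time (0.48) and with shEVI1-2532 (1.60).

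Of 22 negative regulators 2 rose and 1 fell in the change with time, 1 rose and 1 fell with shEVI1-2531, and 8 rose and 6 fell with shEVI1-2532. The share called was below that of all genes in the change with time (13.6%) and with shEVI1-2531 (9.09%), and was 63.6% with shEVI1-2532. *SOCS3*, the feedback inhibitor at gp130 and the G-CSF receptor, rose in the change with time (0.95 ± 0.14 per doubling) and with shEVI1-2532 (1.45 ± 0.20), the hairpins differing by 1.26 ± 0.20 (adjusted p = 8.4e-04). *SOCS2* fell with either hairpin, by 1.08 and 1.13, and *SH2B3*, which restrains JAK2, fell with shEVI1-2532 by 1.12. Of 11 genes known as targets of STAT5 and growth factors 6 rose in the change with time, 5 with shEVI1-2531 and 7 with shEVI1-2532. In any of the 3, 0 fell. These are 54.5%, 45.5% and 63.6% of the list, where 19.8%, 17.4% and 41.1% of all genes were called. The list does not separate genes that these signals raise from genes that they lower. *SOCS2*, which fell with either hairpin, is not on it, and STAT5 activity was not tested. The genes that rose include *ID1* (1.14 per doubling, 2.33 and 1.65), *OSM* (0.96 per doubling), *EGR1* (1.23 and 1.74) and *BCL6* (2.28 with shEVI1-2532). The median of this list was 0.41, 0.42 and 0.57, against -0.00064, 0.0075 and -0.00026 over all genes tested.

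Of 15 transcription factors of receptor promoters 8 rose and 3 fell in the change with time. With shEVI1-2531 6 rose and 3 fell, and with shEVI1-2532 7 rose and 5 fell. These are 73.3%, 60% and 80% of the list, where 19.8%, 17.4% and 41.1% of all genes were called. MECOM is counted among those that fell in each. As it is the target of the hairpins, its fall with either one was set by the design. *KLF4*, a factor of monocyte differentiation, rose by 1.34 per doubling and by 2.56 and 3.37 with the hairpins, and *CEBPE*, a factor of granule formation, by 1.05 per doubling. *HOXA9* fell with shEVI1-2531 by 1.67. With shEVI1-2532 it was at 14.9 and 14.1 CPM against 27.4 and 32.0 with NTC. At 48 h it was at 20.8 with olaparib and 18.1 with talazoparib against 40.8 with DMSO. *SPI1*, the gene for PU.1, was chosen after its values were seen: it rose by 0.44 per doubling (adjusted p = 0.00865), by 0.56 with shEVI1-2531 (adjusted p = 0.00881) and by 1.00 with shEVI1-2532 (adjusted p = 6.2e-05).

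**Figure D5:**
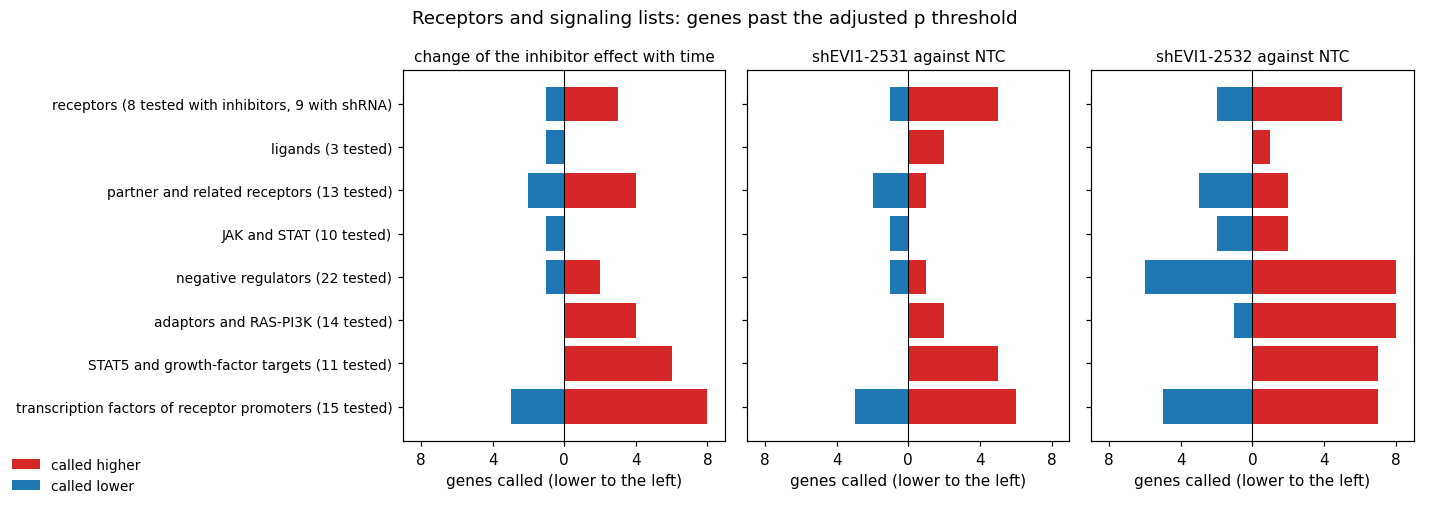
Number of genes called higher (red, right) and lower (blue, left) at an adjusted p under 0.05 in each list, for the change of the inhibitor effect with time and for either hairpin against NTC. The receptors had 3 higher and 1 lower with time, 5 and 1 with shEVI1-2531, and 5 and 2 with shEVI1-2532; all genes were called at 19.8%, 17.4% and 41.1%.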

How the data were processed

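The 16 RNA-Seq libraries of MUTZ-3 cells, 1 per condition, were grouped by their labels. The authors deposited raw counts per gene, made per the labels from stranded, poly(A)-selected, paired-end libraries, and their processing notes name STAR, Picard, featureCounts and hg38 (GRCh38), without versions. The strand setting of the counting is not given in the sources used here. The deposited TPM were not used. The inhibitor experiment comprised 10 libraries and the knockdown 6. Symbols and coordinates are those of the deposited files, and exon lengths came from GENCODE 29.

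A minimum of 10 counts was asked in 3 or more of the 9 inhibitor and DMSO libraries, or in 2 or more of the 6 knockdown libraries. The counts were scaled by TMM and fitted by quasi-likelihood in edgeR 4.0.16 (R 4.3.3), with the hour or day as a factor. This left 4 residual degrees of freedom for the mean inhibitor effect, 2 for its slope on the log2 of hours and 2 for the knockdown. The p-values were adjusted after Benjamini-Hochberg over all genes tested, with a threshold of 0.05. The error comes from how far effects depart from each other across hours or days, not from replicates. edgeR moderated it over all genes, with 4.21 prior degrees of freedom for the mean effect, 10.1 for the knockdown and an infinite number for the slope, whose error is thus shared by all genes. Nothing states that the libraries came from separate cultures. Ratios of single libraries have exact conditional 95% intervals, which cover counting error only, without a p-value. The depth allowed a floor of 3 counts, 0.0249 to 0.0536 CPM.

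The genes named are the 9 receptors, their 2 most alike genes and, from each list, at most 3 called genes with the largest change in a comparison. Some genes that this rule names are not reported here. The receptors, lists and tests were chosen with earlier results of these data known. Alternatives were other scalings and filters, DESeq2 1.42.0, models without the hour or day and leaving out libraries. The fits were tested on simulated data. Plots used matplotlib 3.10.9 (Python 3.11.15). The label of the shEVI1-2531 libraries was followed, although the names of their files carry another number for the hairpin.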

Additional observations from a re-analysis of the deposited data

Results flagged for a closer look

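The effect of both inhibitors on 4 receptors differed between the time points by the test of the slope itself, on the log2 scale per doubling of the hours. It was 0.75 for *CSF2RB*, 0.76 for *CSF3R*, 0.42 for *IL3RA* and -0.79 for *KIT*. Of all genes tested, 19.8% were called in that test.

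The effects of the 2 hairpins differed from each other for 6 receptors, as log2 fold change of shEVI1-2532 minus shEVI1-2531. The difference was 1.33 for *CSF3R*, 0.71 for *IL3RA*, 0.64 for *CSF1R*, 0.55 for *CSF2RA*, -2.01 for *KIT* and -3.32 for *FLT3*. Of all genes tested, 24.2% differed between the hairpins. For *CSF1R* the test gave an adjusted p of 0.0496, and the difference was 0.08 without the shEVI1-2532 library of day 3. For *KIT* the direction against NTC was opposite with the 2 hairpins, and *FLT3* rests on 1 to 30 counts per library.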

How the results depend on the processing

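Of 538 fold changes of receptors under other settings, 449 kept their direction and side of the threshold, 42 lost a call, 21 gained one and 26 turned. Where leaving out libraries left a condition with 1, its spread was assumed to be that of the others. The mean inhibitor effect called 0 receptors, 2 without a filter on low counts, 2 with DESeq2 and 0 to 2 with an hour left out. The change with time called 4, 6 with DESeq2 and 7 with the slope on hours. Leaving out an hour was not run there, since no residual degrees of freedom remain. shEVI1-2531 called 6, 0 with no day in the model, and 3 to 6 with a library left out. shEVI1-2532 called 7, and 1 with both hairpins as 1 group. The hairpins differed for 6, 1 with no day in the model, and 3 to 5 with a library left out; the cause was not tested. With libraries scaled by their totals only, the median gene shifted by -0.17 to -0.35 on the log2 scale at 48 h and in the knockdown.

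Directions that turned belong to effects not called, but for *KIT* with shEVI1-2532, which was 0.022 with both hairpins as 1 group. In the mean inhibitor effect, *CSF1R* was 0.036 with upper quartile scaling, 0.0047 with at least 50 counts and 0.010 with no hour in the model, and -0.14 to 0.20 with an hour left out; *IL6R* was -0.0036 and *IL2RG* -0.048 with totals only. With an hour left out *IL6R* was -0.096 to 0.21, *IL2RG* -0.038 to 0.13 and *KIT* -0.70 to 0.12. For talazoparib minus olaparib, *IL3RA* was -0.041 and *IL2RG* -0.0085 with totals only, and *IL3RA* -0.017 with no filter. With an hour left out *IL3RA* was -0.024 to 0.048, *IL2RG* -0.069 to 0.10 and *CSF1R* -0.053 to 0.17. With a library left out, *FLT3* was -1.99 to 0.28 and *CSF1R* -0.61 to 0.019 with shEVI1-2531, *CSF1R* -0.23 to 0.82 with shEVI1-2532, and between the hairpins *CSF2RB* -0.086 to 0.050 and *IL2RG* -0.0077 to 0.44; *CSF2RB* was 0.0024 with at least 50 counts. No paired analysis was possible because the labels give every condition replicate number 1 only, so that no number could serve as a block; the hour or day was a factor in the fits.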
